A study of Mus musculus with 3 samples.

Results

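Mitochondrial RNA was examined in lists of RNA sites recovered with AGO2, the Argonaute protein that carries microRNAs to their target RNAs. The 3 libraries were made by HITS-CLIP, in which RNA is crosslinked to protein in living cells, the protein is precipitated with an antibody (here the 2D4 clone against AGO2) and the RNA that comes with it is sequenced. All 3 came from P19, a mouse embryonal carcinoma line, and formed 1 group with no treated or control group in the sources used here. The data were 4 lists of peaks, made by the callers CIMS, Piranha, PIPE-CLIP and Pyicoclip. Each list stands for the whole series, so no spread between libraries could be given and the depth of each library is unknown. Every row on the mitochondrial chromosome was taken, which gave 135 of 6911 peaks, with 41 in CIMS, 54 in Piranha, 40 in PIPE-CLIP and 0 in Pyicoclip. The rows are there because a caller listed them, so their presence is a description and was not tested. Positions are in mm10, counted from 1, and each row was assigned to the gene whose span held its midpoint.

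The mitochondrial genome is a small circle that is transcribed on both strands into long RNAs, which are then cut at the transfer RNAs that lie between the other genes. In the orientation of mm10, the plus strand carries both ribosomal RNAs and nearly all messenger RNAs. The minus strand carries ND6, a subunit of respiratory complex I, and 8 of the 22 transfer RNAs. The rest of the long minus-strand transcript runs antisense to the genes of the plus strand. The messenger RNAs encode subunits of complexes I, III and IV and of ATP synthase, and mt-Rnr1 and mt-Rnr2 are the RNAs of the small and large subunits of the mitochondrial ribosome. Directions of genes here are textbook knowledge, since the annotation used gave no strand.

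Peaks fell on 13 of the 37 mitochondrial genes by midpoint, namely on both ribosomal RNAs, on 7 of 13 protein-coding genes and on 4 of 22 transfer RNA genes. Over the annotated gene spans as a whole, 5.17% held a peak of at least 1 list. By list, 9 genes had a CIMS peak, 11 a Piranha peak and 12 a PIPE-CLIP cluster. Of all 49993 annotated gene spans, 0.172% held a CIMS peak, 1.73% a Piranha peak and 3.55% a PIPE-CLIP cluster. Since the rows were chosen by their chromosome among listed peaks, nothing is read from that comparison. The genes found by all 3 of these callers were mt-Rnr1, mt-Rnr2, ND1, ND2, COX1, ND4, ND5 and ND6. ND5 held 37 peaks summed over the lists, mt-Rnr2 23, COX1 18, and mt-Rnr1, ND1, ND6 and CYTB 9 each. A site found by several callers is counted once for each of them, so these sums are not numbers of sites.

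**Figure D1:**
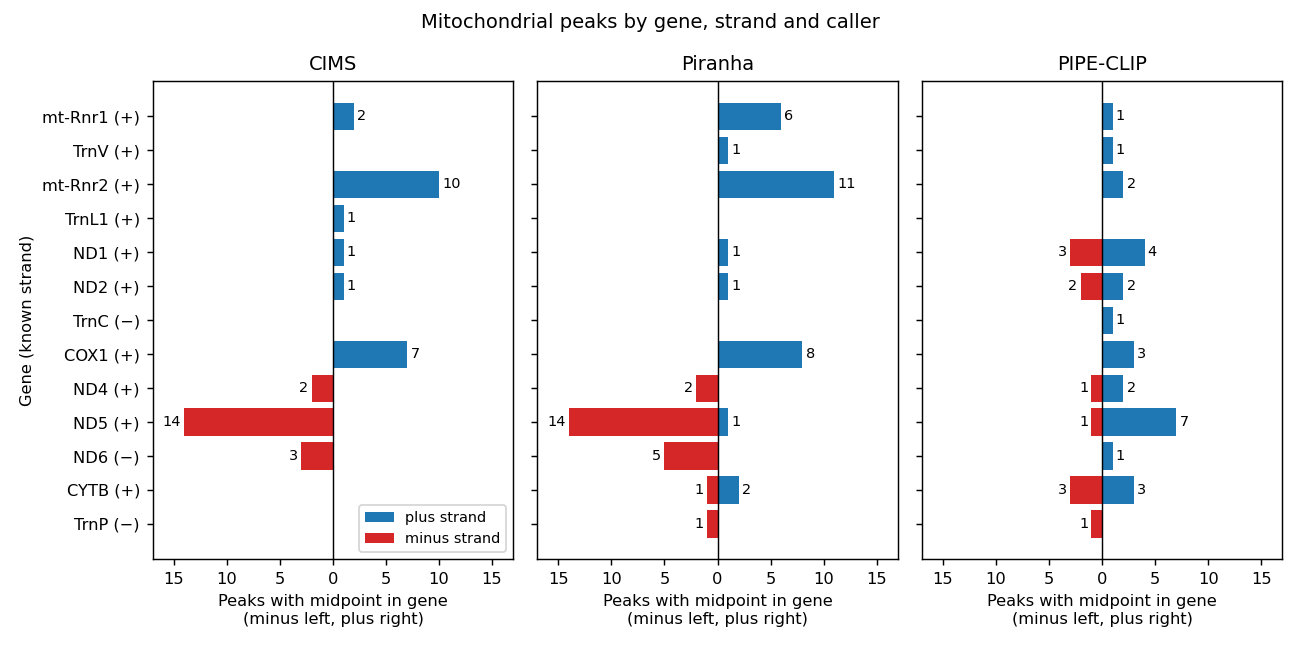
Number of mitochondrial peaks with their midpoint in each gene (horizontal axis, minus-strand peaks to the left and plus-strand peaks to the right) for each gene with a peak (vertical axis, known strand in brackets), in the 3 callers that listed mitochondrial peaks. ND5 shows 14 minus-strand peaks in CIMS and 14 in Piranha, while PIPE-CLIP shows 7 clusters on the plus strand of that gene and 1 on the minus strand.

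In CIMS and Piranha the strand of the peaks mostly followed the region, while PIPE-CLIP listed both strands in several genes. CIMS had 22 plus-strand and 19 minus-strand peaks, Piranha 31 and 23, and PIPE-CLIP 29 and 11. The minus-strand share was thus 46.3% in CIMS (95% Wilson interval 32.1 to 61.3), 42.6% in Piranha (30.3 to 55.8) and 27.5% in PIPE-CLIP (16.1 to 42.8). For nuclear peaks it was 36.7% in CIMS, 50.6% in Piranha and 87.8% in PIPE-CLIP, and the differences from the mitochondrial shares were not tested. Outside the ND5 and ND6 spans, the minus-strand share was 8.33% in CIMS and 11.8% in Piranha, against 32.3% in PIPE-CLIP. The intervals cover counting error only and treat peaks of 1 RNA as independent.

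ND5, a complex I subunit transcribed from the plus strand (mitochondrial chromosome, 11742 to 13565), carried mostly antisense peaks. All 14 CIMS peaks there were on the minus strand, with scores from 28 to 103 and a median of 58.5. The CIMS score of a peak is the number k in its name. Of the 15 Piranha peaks, 14 were on the minus strand, with scores from 10.8 to 29.5, and 1, at 12201 to 12220, was on the plus strand with a score of 11. Both callers therefore placed nearly all of their ND5 peaks on the strand opposite to the messenger RNA. The sense peak had a score near the lowest of the list, 10. Whatever the direction of the gene, the share of annotated gene spans with a minus-strand peak was 0.0660% in CIMS and 0.828% in Piranha. In PIPE-CLIP, 3.12% of gene spans held a minus-strand cluster and 0.456% a plus-strand cluster. These shares mix sense and antisense peaks, so they are not a rate of antisense peaks.

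PIPE-CLIP joined this stretch into 1 minus-strand cluster of 2474 nt, at 11598 to 14071, with a score of 1542, the highest of its 3257 clusters. The cluster covered 100% of the ND5 span and 100% of the ND6 span, so its score cannot be divided between antisense ND5 RNA and ND6. It held 17 CIMS and 19 Piranha minus-strand peaks, which covered 697 and 1240 nt. On the plus strand of the same interval PIPE-CLIP listed 8 clusters with scores from 16 to 70 and a median of 21.5. These lay in ND5, apart from 1 opposite ND6, and covered 1395 nt. By number of clusters PIPE-CLIP thus looked mainly sense over ND5. By length covered, it listed 100% of ND5 on the antisense strand and 68.4% on the sense strand, so much of the gene was covered on both. The highest score was on the antisense strand, but that score is shared with ND6. Of the sense clusters, that at 12079 to 12368 had the highest score, 70, and it enclosed the plus-strand Piranha peak.

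**Figure D2:**
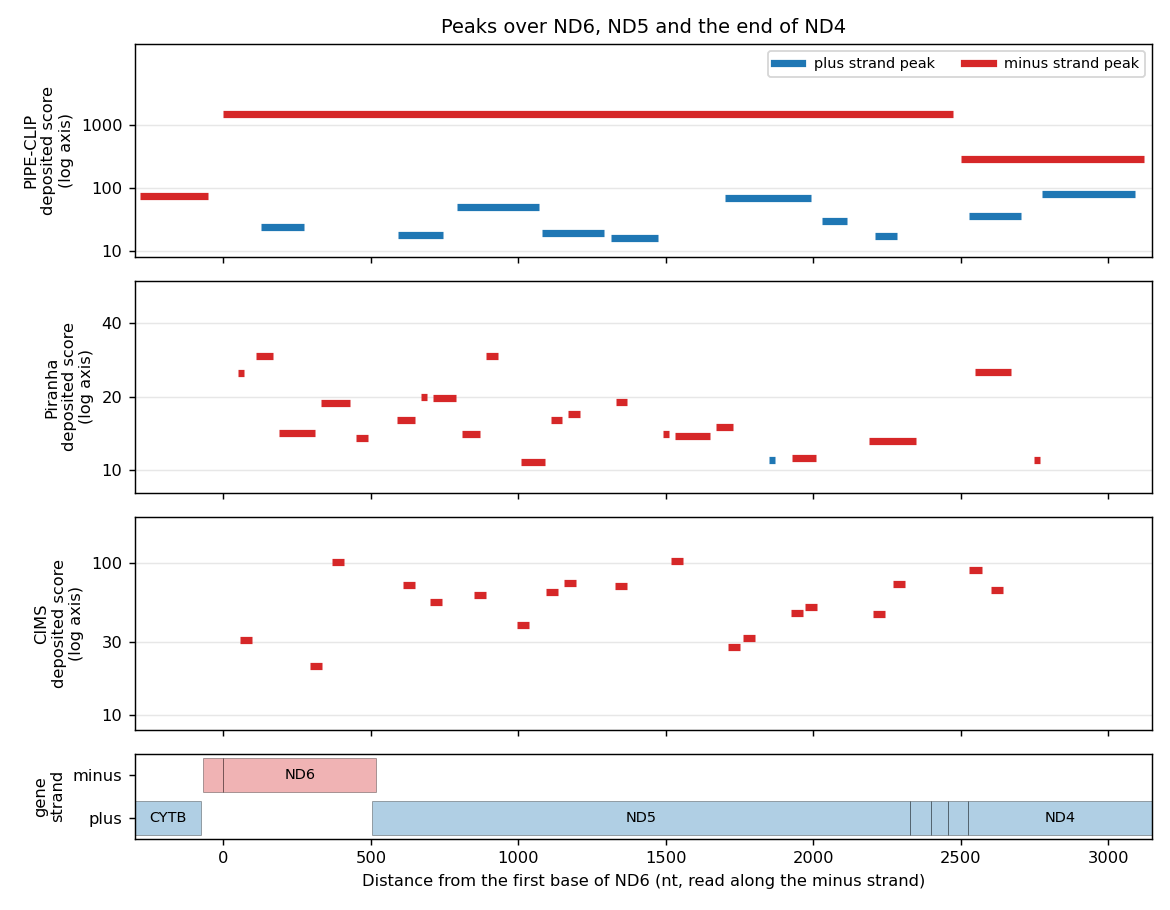
Peaks of PIPE-CLIP, Piranha and CIMS by distance from the first base of ND6, read along the minus strand (horizontal axis, nt), with the deposited score of each list on a log axis (vertical) and the genes below. The minus-strand PIPE-CLIP cluster with a score of 1542 runs from ND6 across the whole of ND5, and 8 plus-strand clusters with scores up to 70 lie under it.

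ND6, the complex I subunit encoded on the minus strand (13552 to 14070), carried sense peaks. CIMS had 3, all on the minus strand, with scores of 102 at 13662 to 13702, 31 at 13972 to 14012 and 21 at 13737 to 13777. Piranha had 5 minus-strand peaks with scores from 13.5 to 29.3, covering 65.5% of the span, and no plus-strand peak. PIPE-CLIP had no minus-strand midpoint in ND6 because the midpoint of the wide cluster lies in ND5, and its only midpoint there was an antisense cluster at 13796 to 13942 with a score of 24. The highest CIMS scores of ND6 and ND5, 102 and 103, were nearly equal. Coverage of the minus strand by Piranha was 65.5% of ND6 and 48.2% of ND5, and by CIMS 23.7% and 31.5%, so the callers gave opposite orders for the genes.

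The minus-strand signal went on into ND4, another plus-strand complex I gene (10167 to 11544), beyond the transfer RNAs TrnL2, TrnS2 and TrnH. CIMS had 2 minus-strand peaks in ND4 with scores of 66 and 90, and Piranha had 2 with scores of 11 and 25.3. The Piranha peak with 25.3, at 11401 to 11520, overlapped both CIMS peaks in position. PIPE-CLIP had a minus-strand cluster at 10949 to 11569 with a score of 289 and 2 plus-strand clusters with scores of 36 and 79. ND4 was therefore antisense in CIMS and Piranha, and on both strands in PIPE-CLIP with the higher score antisense.

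Past the other end of ND6, CYTB, the mitochondrial gene of complex III (14145 to 15288), had no CIMS peak. PIPE-CLIP had 3 minus-strand clusters there with scores of 10, 75 and 180, covering 84.6% of the span, and 3 plus-strand clusters with scores of 15, 24 and 46. Piranha had 2 plus-strand peaks with scores of 12 and 19 and 1 minus-strand peak with 16. Both callers with CYTB peaks thus listed both strands, and the PIPE-CLIP cluster of the highest score, at 14547 to 15248, was antisense. TrnP, a minus-strand transfer RNA, had 1 sense peak in each of Piranha and PIPE-CLIP, with scores of 10 and 17.

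The ribosomal RNAs carried plus-strand peaks only, in each of CIMS, Piranha and PIPE-CLIP. mt-Rnr2, the large ribosomal RNA (1094 to 2675), had 10 CIMS peaks with scores from 10 to 124 and a median of 82. The CIMS peak at 1171 to 1211 had the highest mitochondrial score of that list, 124, and that at 1874 to 1914 had 112, the 5th and 8th highest of all 169 CIMS peaks. Piranha had 11 peaks there with scores from 10 to 39, and its highest mitochondrial score, 39, lay at 1501 to 1520, where CIMS listed no peak. PIPE-CLIP had 2 clusters by midpoint, at 1132 to 1637 with a score of 277 and at 1640 to 3041 with 635. With the end of a further cluster, these covered 99.2% of the span, and the one that scored 635 reached through TrnL1 into ND1. No minus-strand peak of any list overlapped mt-Rnr2 or mt-Rnr1.

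mt-Rnr1, the small ribosomal RNA (70 to 1024), had 1 PIPE-CLIP cluster at 69 to 1006 with a score of 513, which covered 98.1% of the gene. Piranha had 6 peaks with scores from 13.2 to 29, covering 56.5% of it. CIMS had 2 peaks, with scores of 67 at 880 to 920 and 39 at 556 to 596, covering 8.59%. In mt-Rnr2, CIMS covered 25.9% and Piranha 51.0%. Each list had fewer peaks in mt-Rnr1 than in the longer mt-Rnr2. As a share of the gene covered, CIMS was lower in mt-Rnr1, while Piranha was slightly higher there. Between the genes, TrnV had a Piranha peak with a score of 11 and a PIPE-CLIP cluster with 33. After mt-Rnr2, TrnL1 had a CIMS peak with a score of 16.

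**Figure D3:**
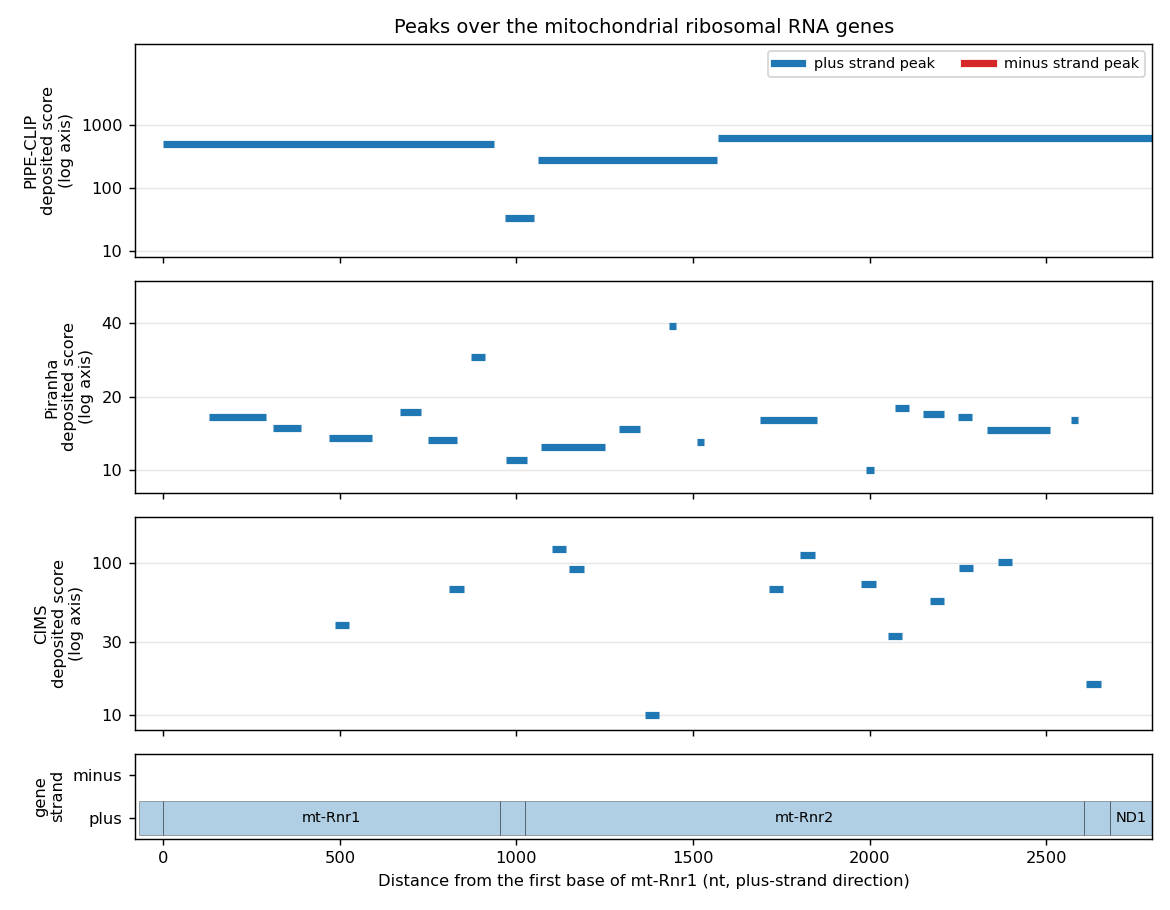
Peaks of PIPE-CLIP, Piranha and CIMS by distance from the first base of mt-Rnr1 in the plus-strand direction (horizontal axis, nt), with the deposited score of each list on a log axis (vertical) and the genes below. Every peak shown is on the plus strand, and the CIMS peak with a score of 124 lies near the start of mt-Rnr2.

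COX1, which encodes the catalytic subunit of complex IV (5328 to 6872), resembled the ribosomal RNAs in strand. It held 7 CIMS peaks with scores from 35 to 70, 8 Piranha peaks with scores from 10.3 to 32 and 3 PIPE-CLIP clusters with scores of 64, 71 and 285. All 18 were on the plus strand, the sense strand of COX1, and the last one ended at 6440, before the end of the gene. ND1 and ND2, complex I subunits of the plus strand, had 1 CIMS and 1 Piranha peak each, all sense, with CIMS scores of 22 and 17. PIPE-CLIP listed clusters on both strands there, with 4 sense and 3 antisense in ND1 and 2 of each in ND2. Antisense clusters of ND1 had scores from 15 to 35 and those of ND2 had 40 and 47, close to the sense clusters, at 14 to 43 in ND1 and 18 and 69 in ND2.

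Counted over all genes with the sense of each, CIMS had 25 sense and 16 antisense peaks, Piranha 37 and 17, and PIPE-CLIP 26 and 12, with 2 clusters outside any gene. The antisense peaks of CIMS lay in ND5 and ND4, and those of Piranha in ND5, ND4 and CYTB. The antisense clusters of PIPE-CLIP were spread over 7 genes, which also included ND1, ND2, ND6 and TrnC, a minus-strand transfer RNA crossed by a plus-strand cluster with a score of 12. Antisense here means opposite to the messenger, ribosomal or transfer RNA. A wide cluster over ND5 and ND6 is sense for ND6 and antisense for ND5.

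A stretch of 4508 nt, from 6441 to 10948, held no peak of any list on either strand. The next longest stretch without a peak, between the first and last mitochondrial peak, was 229 nt. The empty stretch holds 11 whole genes, among them 6 of the 13 protein-coding genes: COX2 and COX3 of complex IV, ATP8 and ATP6 of ATP synthase, and ND3 and ND4L of complex I. It also takes the end of COX1 and the start of ND4. The annotation lists a pair of pseudogenes on nuclear chromosome 1, Gm10925, which has mt-Atp6 among its synonyms, at 24613971 to 24614651, and Gm10222, at 24612404 to 24612700. They have the same lengths as ATP6 and ND4L, 681 and 297 nt. No peak of any list lay within 10000 nt of either pseudogene. How reads that match more than 1 place were handled is not given in the sources used here, so the part of such copies in the empty stretch was not tested, and the absence of peaks does not show that these RNAs were absent from the libraries.

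Mitochondrial peaks had high scores within their own lists. The median mitochondrial score was 59 in CIMS against a list median of 27, 15.5 in Piranha against 12, and 34 in PIPE-CLIP against 14. In percentiles of the list, the medians were 73.1, 80.1 and 94.5 in that order. Of the 10 highest PIPE-CLIP scores 6 were mitochondrial, and of the 10 highest CIMS scores 2 were, against 0 in Piranha. Median percentiles of plus-strand and minus-strand peaks were 72.3 and 74.9 in CIMS, 74.8 and 82.5 in Piranha and 93.0 and 96.4 in PIPE-CLIP. Not all mitochondrial scores were high, since 5 CIMS peaks, 9 Piranha peaks and 3 PIPE-CLIP clusters had a percentile under 50.

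**Figure D4:**
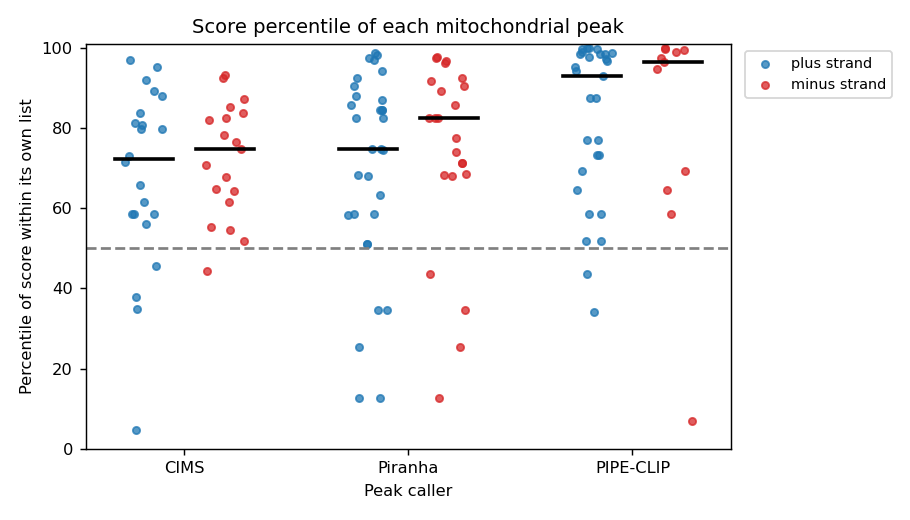
Percentile of the deposited score of each mitochondrial peak within its own list (vertical axis, percent), by caller and strand (horizontal axis), with black lines at the medians and a dashed line at 50. The medians lie at 72.3 and 74.9 in CIMS, 74.8 and 82.5 in Piranha and 93.0 and 96.4 in PIPE-CLIP for the plus and minus strand.

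The highest mitochondrial PIPE-CLIP scores belonged to wide clusters, but no relation of score to width was computed. Mitochondrial clusters had a median width of 156 nt and reached 2474 nt, against a median of 84 nt and a maximum of 1109 nt for nuclear clusters. Divided by length, the score per 100 nt was 62.3 for the cluster over ND5 and ND6, 54.7 for that of mt-Rnr1 and for the mt-Rnr2 cluster that scored 277, and 45.3 for the mt-Rnr2 cluster that scored 635. The ND4 antisense cluster had 46.5. In COX1 the longest cluster had 39.2, and the shortest, at 5325 to 5426, had 62.7, the highest of all 40 mitochondrial clusters. The gap between the minus-strand cluster and the ribosomal RNAs was thus smaller per length than in the scores. In Piranha, mitochondrial peaks had a median width of 40 nt against 20 nt for nuclear peaks, while each CIMS peak is 41 nt wide.

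The callers were compared on the sites themselves, where sharing meant an overlap of 1 nt or more between peaks of equal strand. All 41 CIMS peaks lay wholly inside a PIPE-CLIP cluster, and all 54 Piranha peaks overlapped one. Of the CIMS peaks 33, or 80.5% (66.0 to 89.8), overlapped a Piranha peak, and of the Piranha peaks 29, or 53.7% (40.6 to 66.3), overlapped a CIMS peak. Read from PIPE-CLIP, 10 of 40 clusters, 25% (14.2 to 40.2), held a CIMS peak and 16, 40% (26.3 to 55.4), a Piranha peak. No CIMS peak overlapped a Piranha peak of the opposite strand. The lists come from the same libraries, so this agreement is not replication, and wide clusters overlap other peaks more easily. Without the cluster over ND5 and ND6, PIPE-CLIP overlapped 58.5% of CIMS and 64.8% of Piranha peaks.

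Merging the peaks of each strand gave 40 mitochondrial loci, 29 on the plus and 11 on the minus strand. Of these, 8 held peaks of all 3 callers, at mt-Rnr1, at 2 places that begin in mt-Rnr2, at 3 in COX1, at ND4 antisense, and at ND5 with ND6. PIPE-CLIP alone gave 22 loci, 15 on the plus and 7 on the minus strand, and no locus was of CIMS or Piranha alone. Nuclear peaks showed lower shares, with 66.4% of CIMS (57.9 to 74.0) and 20.5% of Piranha peaks (18.4 to 22.7) overlapping PIPE-CLIP. The difference was not tested, and the mitochondrial clusters were wider. Sharing also needed equal strand, and nuclear PIPE-CLIP clusters were 393 on the plus and 2824 on the minus strand. Nuclear CIMS peaks were 81 on the plus and 47 on the minus strand, and nuclear Piranha peaks 674 and 689. Nuclear plus-strand peaks thus had few PIPE-CLIP clusters of their strand to overlap, and the part of strand in the lower shares was not tested.

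Pyicoclip stood apart, since it listed 0 mitochondrial peaks of 2068, so the share could be as high as 0.145% if 3 counts are taken as the limit of a count of 0. Over the nucleus, 100% of 128 CIMS peaks and 99.5% of Piranha peaks overlapped a Pyicoclip peak. Some Pyicoclip peaks carry no strand, and these were counted as overlapping peaks of either strand. The mitochondrial share was 24.3% in CIMS (18.4 to 31.2), 3.81% in Piranha (2.93 to 4.94) and 1.23% in PIPE-CLIP (0.903 to 1.67). These shares depended on how peaks were counted. With scores of at least 20 they were 39.2%, 9.57% and 3.48%, and by covered bases 24.3%, 9.62% and 3.87%. Whether the mitochondrial chromosome was given to Pyicoclip is not given in the sources used here.

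CIMS names carry a further number, m, beside k. In the usual naming of that caller, k counts the reads over a site and m those with a crosslink-induced mutation, but the files do not say so. Among mitochondrial CIMS peaks m ran from 3 to 19, with the lowest value of the list, 3, in 27 of 41, or 65.9%. Among nuclear peaks 60 of 128, or 46.9%, had m of 3. The median of m as a share of k was 6.52% for mitochondrial and 20.9% for nuclear peaks, with median k of 59 and 19. Among peaks with k of at least 20 the medians of this share were closer, at 6.32% for 38 mitochondrial and 7.69% for 59 nuclear peaks. An m of 3 was still more frequent among the mitochondrial peaks, in 24 of 38 against 23 of 59 nuclear peaks, with median m of 3 and 4. The highest mitochondrial share was 48.7%, in mt-Rnr1 at 556 to 596, with m of 19 and k of 39, and in ND5 the shares ran from 4.05% to 14.3%. The mt-Rnr2 peaks with k of 124 and 112 had shares of 2.42% and 2.68%, with m of 3 in each, and the mt-Rnr2 peak with k of 10 also had m of 3, a share of 30%.

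**Figure D5:**
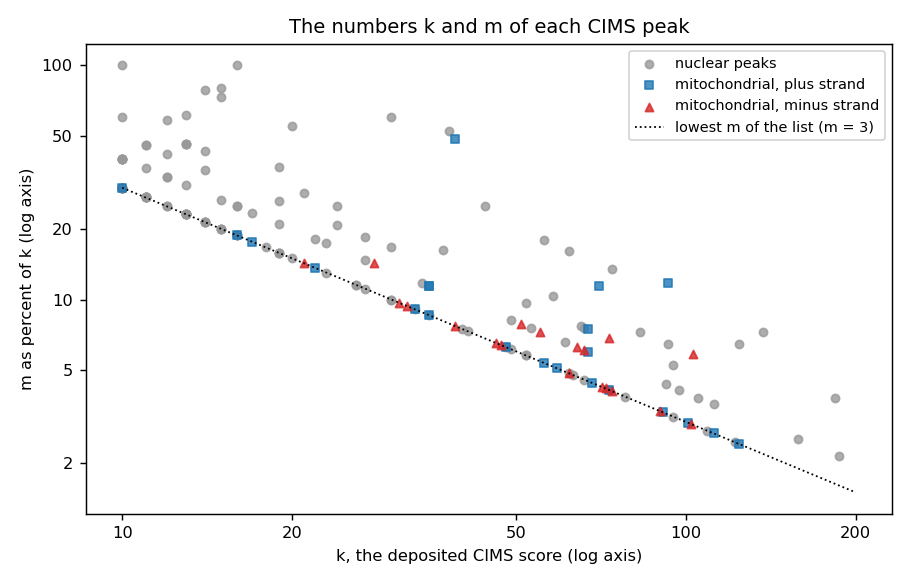
The number m as a percent of k (vertical, log axis) against k, the deposited CIMS score (horizontal, log axis), for each CIMS peak, with nuclear peaks in grey, mitochondrial plus-strand peaks as blue squares and minus-strand peaks as red triangles. The dotted line marks m of 3, the lowest of the list, on which 27 of the 41 mitochondrial peaks lie, and the square at 48.7% is the site in mt-Rnr1.

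Nuclear genes that serve the mitochondrial genome were counted from lists of genes by function, over all 4 peak lists. Peaks of either strand were counted, so a peak in the span of a nuclear gene need not lie on the strand of its RNA. Of 24 genes of mitochondrial RNA processing, stability and translation, 3 had a peak, against 9.77% of all annotated protein-coding genes. Lars2, the mitochondrial leucyl-tRNA synthetase, had peaks in all 4 lists on chromosome 9. They included 4 CIMS peaks that scored 22 to 158 and a PIPE-CLIP cluster of 157 at 123461884 to 123462186. All Lars2 peaks lay in 1 short stretch, 123461822 to 123462190, of a gene span from 123366927 to 123462675. Whether the reads of that stretch come from Lars2 messenger RNA was not tested. Grsf1, an RNA-binding protein of mitochondrial RNA granules, had a Pyicoclip peak with a score of 10 and a PIPE-CLIP cluster with 22, which overlapped on chromosome 5 on the minus strand. Fastk had 1 PIPE-CLIP cluster with a score of 11. Of 12 genes of mitochondrial transcription and replication, Tfam and Polg had 1 PIPE-CLIP cluster each. Both clusters had a score of 10, the lowest of the list. Tfam packages the mitochondrial genome, and Polg is its DNA polymerase.

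Of 40 nuclear genes of complex I subunits, 5 had a peak, and Ndufv2 was the only one in 2 or more lists, with scores of 11 in Piranha, Pyicoclip and PIPE-CLIP. Its Piranha and Pyicoclip peaks were on the plus strand and its PIPE-CLIP cluster, at another place, on the minus strand. Of 78 mitochondrial ribosomal protein genes, Mrpl39 alone had a peak, a PIPE-CLIP cluster with a score of 13. The share of complex I genes with a peak was 12.5%, near the 9.77% of all protein-coding gene spans, and their scores ran from 10 to 15. Of 8 markers of pluripotent cells, Lin28a and Pou5f1 had a peak, and of 8 markers of neural and muscle cells, Map2 had 1 PIPE-CLIP cluster with a score of 10. A peak list does not measure RNA level, so a marker without a peak is not shown to be absent.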

How the data were processed

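Per the labels' protocols, libraries were amplified by PCR and short inserts were selected, with no molecular identifiers named. Per the submitters' processing notes, reads were treated with cutadapt and Novoalign, and the build was mm10. For versions, caller settings and the combining of libraries, nothing is stated in the labels or files. The authors deposited 1 peak list per caller. The deposited score has no stated unit and was used to rank and describe peaks within a list. In Piranha, score times the number of 20-nt bins was whole (within 0.01) for all 1417 peaks.

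Genes came from a RefSeq table of GRCm38.p6, which shares its coordinates with mm10. Gene directions were added by hand. Shares have 95% Wilson intervals. No p-value was computed, since no value per library was used and peaks of 1 RNA are not independent. Genes and lists were chosen with earlier results of these data known. Named genes were all mitochondrial genes with a peak and members of the nuclear lists with peaks in at least 2 lists. Nuclear genes in fewer lists, and the pseudogenes, were named after their values were seen. No mitochondrial sequence was used. Of 1000 simulated rows placed inside or outside genes that did not overlap each other, 1000 were assigned correctly. This checks the code only, and not clusters that span several genes. Python 3.11.15, numpy 2.4.6, pandas 2.3.3 and matplotlib 3.10.9 were used.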

Additional observations from a re-analysis of the deposited data

How the results depend on the processing

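Of 48 values under alternatives for 25 results, 31 stayed within their interval or within 1.5 times a count, and 17 did not. With scores of at least 20, the mitochondrial share was 39.2% in CIMS, 9.57% in Piranha and 3.48% in PIPE-CLIP, and 6 genes had a Piranha peak. By covered bases the share was 9.62% in Piranha and 3.87% in PIPE-CLIP. By overlap of at least 1 nt, 21 genes had a PIPE-CLIP cluster. Without peaks over 500 nt, PIPE-CLIP covered 3903 nt of the plus strand, against 7476, and 1200 nt of the minus strand, against 4997. Against nuclear peaks outside ribosomal RNA, the median CIMS percentile was 88.3. Without PIPE-CLIP, the nuclear genes with a peak numbered 0 for transcription and replication, 1 for complex I and 0 for mitochondrial ribosomal proteins, where 4.58% of all protein-coding gene spans had one. Chosen after seeing the data, the minus-strand share outside ND5 and ND6 was 8.33% in CIMS and 11.8% in Piranha, and overlap with PIPE-CLIP without its widest cluster was 58.5% for CIMS and 64.8% for Piranha. The cause of these changes was not tested. No paired analysis was possible because the lists hold no value per library, and for the same reason no library could be left out.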

Other observations

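The widest PIPE-CLIP cluster reached up to 14071, which is the base next to ND6. That base has the lowest coordinate of TrnE, a minus-strand gene, so it is not the start of that RNA. The other end of the cluster, 11598, lay 14 nt inside TrnH. The mt-Rnr1 cluster began at 69, the base after the end of TrnF at 68, and ended 18 nt before the end of mt-Rnr1. The ends of the mt-Rnr2 cluster that scored 635 lay 546 and 290 nt from the nearest gene end. These clusters were looked at after their values were seen, and the position of cluster ends was not tested.

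PIPE-CLIP names carry running numbers that rise with position on the mitochondrial chromosome in 39 of 39 steps, from 214563 to 214654. Of these 92 numbers 40 are listed, and 6 unlisted numbers fall between the clusters on either side of the stretch without peaks, at 6441 to 10948. What the unlisted numbers stand for is not given in the sources used here.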
